A study of Mus musculus with 32 samples.

Results

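The genes described here are the nuclear-encoded subunits of the mitochondrial respiratory chain, read in microglia and macrophages sorted from mouse brain. They were chosen by symbol alone: rows whose names begin with Nduf followed by a, b, c, s or v and a digit, with Uqcr, with Cox and a digit from 4 to 8, or with Atp5, together with Sdha, Sdhb, Sdhc and Sdhd. The rule found 78 of the 17586 genes in the table, of which 36 belong by symbol to complex I, 4 to complex II, 9 to complex III, 13 to complex IV and 16 to complex V. The respiratory chain carries electrons from NADH (complex I) and succinate (complex II) through ubiquinone, complex III and cytochrome c to oxygen (complex IV), and the proton gradient built on the way drives ATP synthesis by complex V. Most of its proteins are encoded in the nucleus and a few in mitochondrial DNA, and activated macrophages are known to alter their use of it. Of the 78 rows, 3 are not distinct subunits: Cox4nb is an older symbol of Emc8, Atp5sl an older symbol of Dmac2, a complex I assembly factor, and Uqcr an older symbol of Uqcr11, which has a row of its own. Ndufa4 counts under complex I by its symbol and is now known as a complex IV subunit.

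The 32 libraries came from 4 populations of 8, each with 4 libraries from C57BL/6J (WT) recipients and 4 from Pep3/CD45.1 (Pep3) recipients. Normal microglia came from mice with no tumour and no graft, labelled Nil. The other 3 populations, tumour microglia and the macrophages labelled as tumour differentiated and as tumour undifferentiated, came from immunocompetent chimeric mice, labelled PEP-3 into WT or WT into PEP-3, that had been implanted with GL-261 cells, a syngeneic mouse glioma line; the names of the 2 macrophage populations are the submitters'. The sources used here give no ages, no sort gates and no account of the cells a host kept after grafting. By the experiment numbers in the labels, normal microglia were experiments 1 and 2 and all tumour populations experiments 3 and 4, so tumour, graft and experiment cannot be told apart in that comparison. In every population WT and Pep3 libraries had different experiment numbers, so recipient and experiment cannot be told apart there either. The labels do not say that each library was a separate animal, so the p-values reflect only how far these libraries spread, which may in part be technical. In bulk libraries of sorted cells, fewer cells of a type and less RNA per cell cannot be told apart. The values are signed scores of unstated scale, centred on 0 for each gene; differences below are in units of that scale, and neither levels nor fold changes can be read from them.

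Sequencing depth is unknown. The 32 libraries span only 21 dimensions, and 9 of them kept under 50% of their own variation: normal microglia 1, 10, 18 and 26, tumour microglia 27, differentiated macrophages 28 and 31, and undifferentiated macrophages 8 and 29. Added up over 8 libraries, the variation kept equalled 4.04 libraries in normal and 6.32 in tumour microglia. It equalled 5.32 in differentiated and 5.31 in undifferentiated macrophages. Means, SDs and ranges below count all libraries alike. Markers of microglia and macrophages matched those labels: all 9 microglia markers fell and all 8 measured markers of monocyte-derived macrophages rose in both macrophage populations against tumour microglia. Between the 2 macrophage populations 0 of the 9 and 1 of the 8 were called. Pan-myeloid markers fell in 3 of 6 in differentiated and 5 of 6 in undifferentiated macrophages. Markers of other cells are given below. Differences and their standard errors came from limma fits across all genes, and a gene was called higher or lower, or said to have risen or fallen, at a Benjamini-Hochberg adjusted p below 0.05.

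In tumour microglia the subunits stood above those of normal microglia as a group, and none fell. The median score of the 78 genes ran from -0.631 to 0.0398 over the normal microglia libraries (median -0.443) and from -0.0842 to 0.616 over the tumour microglia libraries (median 0.16), with overlapping ranges. Its mean was -0.375 ± 0.231 in the former and 0.195 ± 0.211 in the latter (SD, n = 8). The same library median over all genes lay in the opposite order, at -0.142 ± 0.185 and -0.331 ± 0.197 (SD, n = 8). Differentiated macrophages (0.128 ± 0.229) and undifferentiated macrophages (0.146 ± 0.137) lay near tumour microglia in the subunit median, and above both microglia populations in the all-gene median, at 0.29 ± 0.172 and 0.289 ± 0.116 (SD, n = 8 each). The subunit median exceeded the all-gene median in 8 of 8 tumour microglia libraries, and in 1, 1 and 2 of 8 libraries of normal microglia, differentiated and undifferentiated macrophages.

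**Figure D1:**
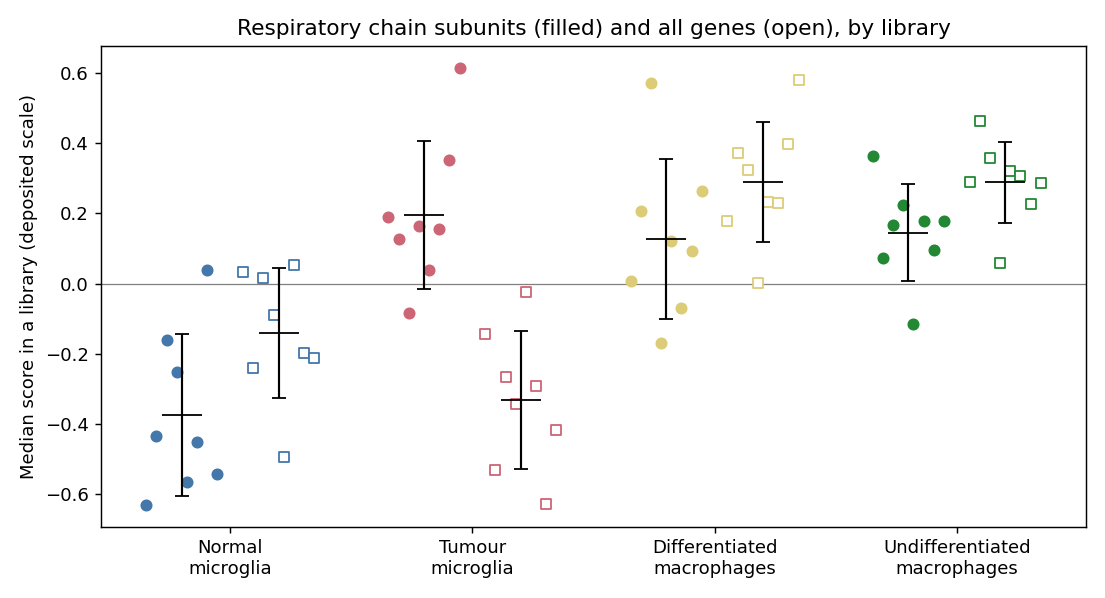
Median score of the 78 subunit genes (filled circles) and of all 17586 genes (open squares) in each library, on the deposited scale, by population; black bars are the mean and SD of 8 libraries. Subunit medians average -0.375 in normal and 0.195 in tumour microglia, while the all-gene medians average -0.142 and -0.331.

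Of the 78 genes, 15 rose in tumour microglia against normal microglia (19.2%) and 0 fell, with 1 lower at an unadjusted p below 0.05, where 4.66% of all genes rose and 12% fell. The median difference of the subunits was 0.594, with 65 of 78 positive, against -0.245 for all genes. With the all-gene median of each library subtracted first, 26 subunits were higher and 0 lower, against 7.72% higher and 7.6% lower among all genes, and the median difference was 0.839. Single libraries moved the count, and that of all genes with it: from 15 subunits and 820 of all genes, those higher were 0 and 89 without normal microglia 1, and 5 and 318 without tumour microglia 27. The subunits numbered 4 without normal microglia 10, 18 or 26, where 267, 326 and 357 of all genes were higher, and 9 without tumour microglia 30. A single gene was called lower without differentiated macrophage library 12. The median difference was between 0.453 and 0.738 in these fits; in a fit of WT recipients alone, with 3 residual degrees of freedom, it was -0.385 and 0 of all 17586 genes were called. The deposited means in WT recipients gave a median of 0.353, with 60 of 78 positive. In the deposited means all 15 called genes had the same sign in both recipients. They were called on the average over both recipients, which favours such agreement, so it is no separate support. In the fit of WT recipients alone Atp5b, Cox8a, Ndufa4, Ndufa5, Ndufb6, Ndufb7 and Ndufb8 turned sign, as did Cox8a in Pep3 recipients alone.

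**Figure D2:**
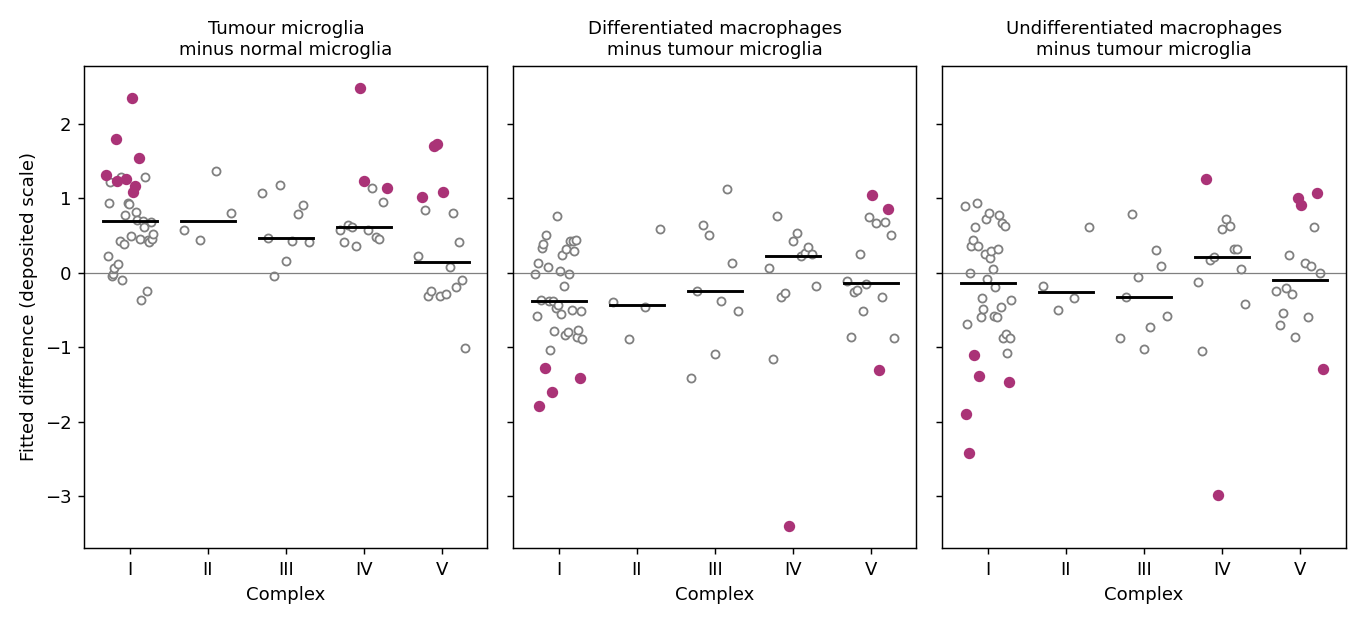
Fitted difference of each of the 78 genes in 3 comparisons, by complex, on the deposited scale; filled points were called at an adjusted p below 0.05, open points were not, and black lines mark the median of each complex. Most differences lie above 0 for tumour against normal microglia, and Cox6a2 is the highest point there (2.48) and the lowest in both macrophage comparisons (-3.41 and -2.99).

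Complex I, which takes electrons from NADH, had 8 of its 36 genes higher in tumour microglia and a median difference of 0.693. Its membrane arm, which pumps protons, held 6 of these among 19 genes, and its peripheral arm, which holds the flavin and the iron-sulfur clusters, held 1 of 16; the difference between the arms was not tested. The 6 genes of the membrane arm encode accessory subunits. Ndufc2 scored from -1.84 to 0.0636 (median -0.485) in normal microglia and from -1.26 to 1.93 (median 0.763) in tumour microglia, and rose by 1.54 ± 0.393 (adjusted p = 0.0106). Ndufb2 scored from -1.52 to -0.0683 (median -0.821) and from -0.496 to 1.22 (median 0.312), and rose by 1.26 ± 0.338 (adjusted p = 0.0137). Both pairs of ranges overlapped, with 7 of 8 tumour libraries above 7 of 8 normal ones. Ndufb6 spread most, from -3.99 to 1.46 (median -1.45) in normal and from -2.73 to 2.92 (median 0.95) in tumour microglia, and rose by 2.35 ± 0.749 (adjusted p = 0.0343).

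The other membrane arm genes gave overlapping ranges as well. Ndufa1 scored from -1.95 to -0.123 (median -1.14) in normal and from -1.45 to 0.628 (median 0.157) in tumour microglia, and rose by 1.32 ± 0.421 (adjusted p = 0.0347). Ndufb8 scored from -1.71 to -0.12 (median -0.824) and from -0.503 to 0.885 (median 0.289), and rose by 1.16 ± 0.38 (adjusted p = 0.0382). Ndufb7 scored from -1.69 to 0.00491 (median -0.852) and from -0.967 to 0.83 (median 0.188), and rose by 1.08 ± 0.34 (adjusted p = 0.0326). All 3 medians were below 0 in normal microglia and above 0 in tumour microglia. Calls of these 6 genes were lost in 2 to 12 of the 32 fits that left out 1 library.

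The peripheral arm gene that rose was Ndufa5, an accessory subunit, which scored from -3.06 to 0.465 (median -1.04) in normal and from -1.37 to 0.641 (median -0.0422) in tumour microglia and rose by 1.23 ± 0.393 (adjusted p = 0.0349). Its change differed between the libraries of WT and Pep3 recipients, which also differed in experiment number. The deposited means differed by 0.139 in WT and by 1.86 in Pep3 recipients, and the fitted WT minus Pep3 difference was -4.62 (adjusted p = 0.036). Ndufa5 was the 1 of 78 subunits to pass this test, which 5.03% of all genes passed. The 6 core subunits of the peripheral arm given here were not called. Ndufv1, which binds NADH, differed by 0.686. The iron-sulfur and other core subunits Ndufv2 (0.448), Ndufs1 (0.451), Ndufs3 (0.70), Ndufs7 (0.435) and Ndufs8 (0.417) had positive differences too. The lowest adjusted p of the 6 was 0.128.

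Ndufa4, the complex IV subunit that its symbol places in complex I, rose by 1.8 ± 0.403 (adjusted p = 0.00457). It scored from -1.9 to 0.867 (median -0.845) in normal and from -0.348 to 1.54 (median 1.02) in tumour microglia. Thus 7 of 8 tumour libraries lay above 7 of 8 normal ones, and the ranges overlapped.

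Complex II, which is also the succinate dehydrogenase of the citric acid cycle, had 0 of 4 genes called, with Sdhc at an unadjusted p below 0.05. All 4 differences were positive. The membrane anchors Sdhc and Sdhd differed by 1.36 and 0.799, the flavoprotein Sdha by 0.579 and the iron-sulfur subunit Sdhb by 0.441. With the library medians subtracted Sdhc was called, at 1.61. Complex III, which passes electrons from ubiquinol to cytochrome c, had 0 of 9 called and a median of 0.471, with Uqcrb and Uqcrh at an unadjusted p below 0.05. Its Rieske iron-sulfur subunit Uqcrfs1 differed by 0.784, and its core proteins Uqcrc1 and Uqcrc2 by 0.157 and 0.428. Uqcrb (1.42) and the hinge protein gene Uqcrh (1.15) were called higher once the medians were subtracted. The rows Uqcr and Uqcr11 are symbols of the same gene and differed by 1.07 and -0.0483, so how its reads were shared between the rows is uncertain.

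Complex IV, cytochrome c oxidase, had 3 of its 13 genes by symbol higher, and all 13 differences were positive (median 0.609). These 13 include Cox4nb, which is no subunit, and leave out Ndufa4. Cox6a2, the isoform of subunit 6a known from heart and skeletal muscle, had the highest difference of all 78 genes. It scored from -1.56 to 1.58 (median -0.151) in normal and from 1.05 to 3.7 (median 1.83) in tumour microglia, with only the highest normal library inside the tumour range. The gene rose by 2.48 ± 0.464 (adjusted p = 0.0014), and its deposited means differed by 2.23 in WT and by 2.22 in Pep3 recipients. It stayed called in 31 of 32 fits that left out 1 library and was lost without normal microglia 1 (adjusted p = 0.132). Cox6a1, the widely expressed isoform, differed by 0.363 (adjusted p = 0.382).

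Cox6b1, a subunit on the intermembrane side, scored from -1.58 to -0.373 (median -1.26) in normal and from -0.501 to 0.419 (median 0.0907) in tumour microglia, and rose by 1.23 ± 0.296 (adjusted p = 0.00741). Cox8a, a small membrane subunit, scored from -1.77 to 0.404 (median -0.757) and from 0.0364 to 0.987 (median 0.451), and rose by 1.13 ± 0.361 (adjusted p = 0.0343). In both genes only the highest normal library reached into the tumour range. The subunits Cox4i1 (0.579), Cox5a (0.641) and Cox5b (0.609) did not pass, nor did Cox7a2 (1.14) or its paralogue Cox7a2l (0.485), a factor that joins complexes III and IV. With the medians subtracted Cox4i1 (0.825), Cox5b (0.854), Cox7a2 (1.39) and Cox7c (1.2) were called as well, which brought complex IV to 7 of 13. The isoform genes Cox4i2, Cox6b2, Cox7a1, Cox8b, Cox8c and Ndufa4l2 are not analysed here.

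Complex V, the ATP synthase, had 4 of 16 genes higher and the lowest median of the 5 complexes, at 0.147. Atp5f1, the b subunit of the peripheral stalk, scored from -1.82 to -0.438 (median -1.04) in normal and from 0.0698 to 1.03 (median 0.605) in tumour microglia, and rose by 1.7 ± 0.349 (adjusted p = 0.0026). Atp5g3, a gene of the c subunit of the rotor ring, scored from -1.67 to -0.795 (median -1.33) and from -0.348 to -0.00925 (median -0.258), and rose by 1.09 ± 0.291 (adjusted p = 0.014). In both of these genes the ranges of the 2 populations did not overlap. How many of all genes lack overlap was not computed. Atp5g1, a second gene of the c subunit, scored from -2.04 to 0.584 (median -1.16) and from -0.166 to 1.97 (median 0.506), with overlap, and rose by 1.73 ± 0.454 (adjusted p = 0.0123). The third, Atp5g2, differed by -0.307 (adjusted p = 0.545).

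Atp5b, the catalytic beta subunit of ATP synthase, scored from -0.908 to 0.514 (median -0.385) in normal and from 0.198 to 0.997 (median 0.563) in tumour microglia, and rose by 1.02 ± 0.339 (adjusted p = 0.0422). Its ranges overlapped, and the call was lost in 14 of 32 fits that left out 1 library. The alpha and gamma subunits, Atp5a1 (0.22) and Atp5c1 (0.84), did not pass. With the medians subtracted Atp5c1 (1.09) and the membrane subunit Atp5j2 (1.05) were also called, as were Ndufb4 (1.16) and Ndufa8 (1.53) of complex I. The lowest difference of all 78 rows, -1.01 (adjusted p = 0.0683), was that of Atp5sl, which is no ATP synthase subunit.

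**Figure D3:**
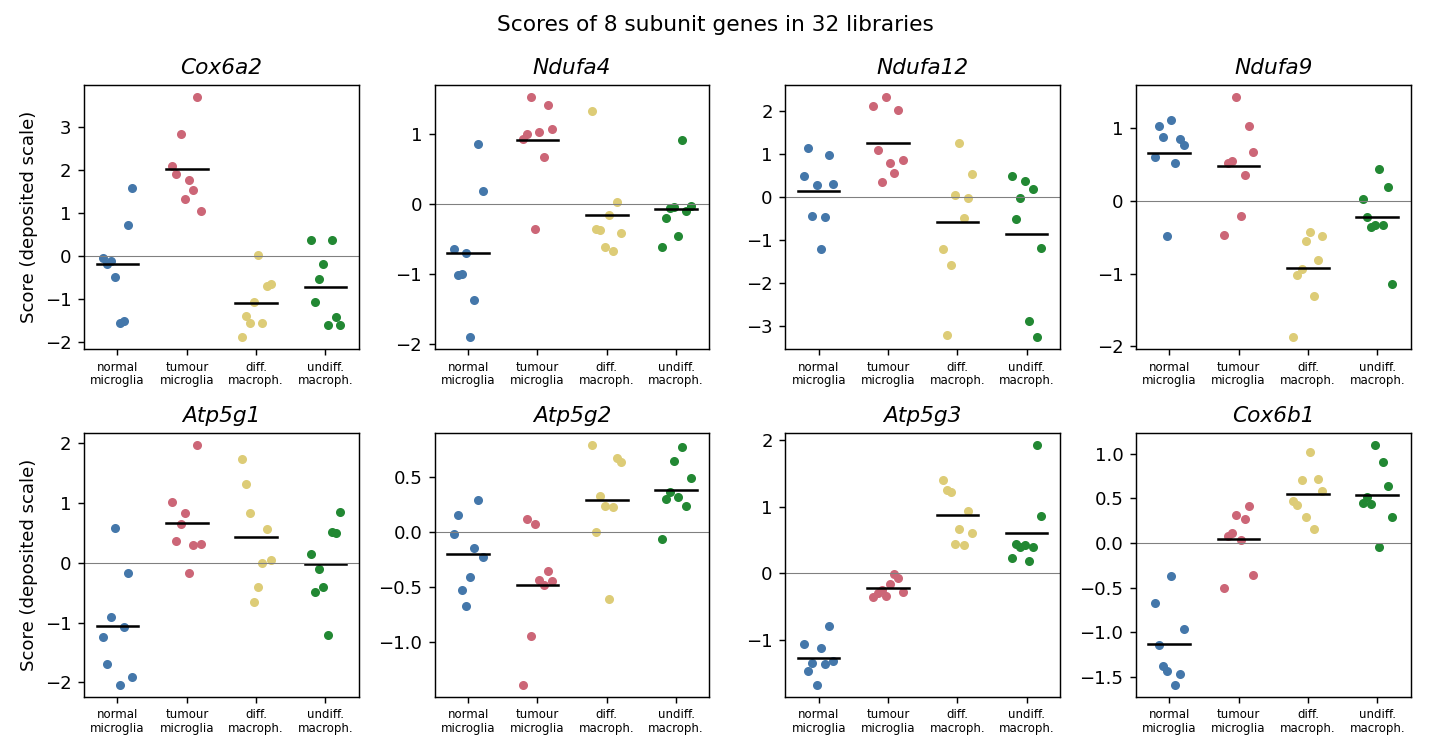
Scores of 8 genes in the 32 libraries, on the deposited scale, by population; each point is a library and the black line is the mean of 8, and each panel has its own vertical axis. Cox6a2 is highest in tumour microglia, from 1.05 to 3.7, and Atp5g3 is lowest in normal microglia, from -1.67 to -0.795.

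The promoters of these genes were searched for motifs of factors known to act on respiratory genes, as 26 genes were called together on the median-subtracted scale. RefSeq promoter windows (build GRCm38.p6), from 250 bases before to 50 after a gene's start, were found for 63 genes, in 68 windows, with Cox4nb and Atp5sl left out. The letters searched on both strands were GCGCATGCG for NRF1, CCGGAAG for ETS factors such as GABP, AAGATGG for YY1 and TATAAA for the TATA box, none of which holds another. The NRF1 letters stood in 8 of 68 windows (11.8%) against 1.75% of all 32851 windows. The ETS letters stood in 16 (23.5%) against 8.86%, the YY1 letters in 11 (16.2%) against 6.34% and the TATA letters in 6 (8.8%) against 13.6%. Of the 14 genes with a window that rose in tumour microglia, 0 held the NRF1 letters, 4 the ETS letters, 2 the YY1 letters and 1 the TATA letters. A match is a description, not a bound site. The 250 bases before the start are shown for Cox6b1 and Ndufb7, a complex IV and a complex I gene that rose in tumour microglia and hold the ETS letters, and for Atp5l, a complex V gene that rose in both macrophage populations and holds the NRF1 and ETS letters. They are written 5′ to 3′ along the gene, with every motif match in capitals (CCGGAAG or its reverse complement CTTCCGG for ETS, CGCATGCGC for NRF1 and TTTATA for TATA).
Cox6b1, chr7:30626115-30626364, minus strand: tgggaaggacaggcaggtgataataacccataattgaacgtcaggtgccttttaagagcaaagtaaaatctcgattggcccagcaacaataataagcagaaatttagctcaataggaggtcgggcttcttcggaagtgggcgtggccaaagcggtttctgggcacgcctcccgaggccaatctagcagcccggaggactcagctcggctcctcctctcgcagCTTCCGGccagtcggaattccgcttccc
Ndufb7, chr8:83566508-83566757, plus strand: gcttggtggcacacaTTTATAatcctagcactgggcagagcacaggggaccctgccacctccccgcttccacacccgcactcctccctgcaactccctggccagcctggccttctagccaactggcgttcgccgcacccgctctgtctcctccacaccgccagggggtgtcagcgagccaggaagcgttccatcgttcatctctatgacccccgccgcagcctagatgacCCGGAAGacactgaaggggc
Atp5l, chr9:44920743-44920992, minus strand: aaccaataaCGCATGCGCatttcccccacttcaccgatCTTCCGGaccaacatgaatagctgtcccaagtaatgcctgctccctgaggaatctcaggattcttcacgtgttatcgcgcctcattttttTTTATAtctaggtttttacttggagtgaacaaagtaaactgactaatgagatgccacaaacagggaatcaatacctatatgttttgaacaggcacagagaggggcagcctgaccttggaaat

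Other genes of the pathway were read from lists, in a comparison where 4.66% of all genes rose and 12% fell. Of 12 carriers and further subunits, 4 rose and 0 fell in tumour microglia (median 0.731). Coq7, an enzyme of ubiquinone synthesis, rose by 2.56 ± 0.55, Usmg5, a small ATP synthase subunit, by 1.37 ± 0.457, Ndufab1, the acyl carrier subunit, by 1.22 ± 0.376 and Cycs, cytochrome c itself, by 1.12 ± 0.34. Of 41 measured assembly factors, 2 rose (4.88%, near the 4.66% of all genes), 1 fell and 38 did not pass (median 0.148). Cox14 and Coa6, both of complex IV assembly, rose by 2.01 ± 0.577 and 1.72 ± 0.531, and Timmdc1, of complex I assembly, fell by 1.14 ± 0.384. Of 17 measured citric acid cycle enzymes, 0 fell and Sucla2, a subunit of succinyl-CoA synthetase, rose by 1.78 ± 0.473 (median 0.35). Of 12 regulators, Tfb1m, a methyltransferase of mitochondrial rRNA, rose by 1.88 ± 0.577 and Esrra, a nuclear receptor of energy metabolism, fell by 1.38 ± 0.361 (median -0.161). Of 13 genes of mitochondrial DNA only mt-Nd4, a complex I subunit, was matched, and it differed by 0.0243.

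Some markers of other cells and of proliferation were called in the same comparison, where 4.66% of all genes rose and 12% fell. Proliferation markers rose in 4 of 5, and the mean score of the list ran from -2.15 to -0.592 in normal and from -0.677 to 1.79 in tumour microglia. Dendritic cell markers rose in 2 of 3, with list means from -2.16 to -0.674 and from -0.571 to 0.20. Neuron markers fell in 2 of 4, with list means from -1.02 to 0.789 and from -1.86 to 0.141. Glioma cell markers fell in 2 of 3 (from -1.13 to 0.18 and from -1.55 to 0.346), microglia markers in 2 of 9 (from 1.44 to 2.48 and from 0.633 to 1.55) and endothelial markers in 1 of 4 (from -1.18 to 0.10 and from -1.48 to -0.325). Astrocyte markers rose in 1 and fell in 2 of 6, with list means from -1.38 to 0.107 and from -0.92 to 0.281. Oligodendrocyte markers rose in 1 of 5, macrophage markers in 1 of 8 and pan-myeloid markers in 0 of 6, and none of 5 T cell markers was matched. A centred score has no zero level, so the absence of a marker cannot be read from it, and the part of these cells in the subunit differences was not tested.

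Against tumour microglia, both macrophage populations held subunits that rose and subunits that fell. In differentiated macrophages 2 of 78 genes rose and 6 fell, where 37% of all genes rose and 6.35% fell, and the median difference was -0.209 for the subunits and 0.652 for all genes. In undifferentiated macrophages 4 rose and 7 fell, where 36.7% of all genes rose and 5.19% fell, with medians of -0.0703 and 0.715. With the library medians subtracted, 0 subunits were higher in either comparison, also at an unadjusted p below 0.05. On that scale 33 were lower in differentiated macrophages (19.8% of all genes higher, 19.2% lower) and 32 in undifferentiated macrophages (16.7% higher, 16.3% lower), with medians of -0.876 and -0.791. The comparisons share the tumour microglia libraries. Cox6a2, Ndufa12, Ndufa4 and Ndufv1 fell in both, and Atp5g3 and Atp5l rose in both on the deposited scale only. After subtraction 26 genes were lower in both. The share of all genes called in both was not computed, so these shared counts have no background to be read against.

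**Figure D4:**
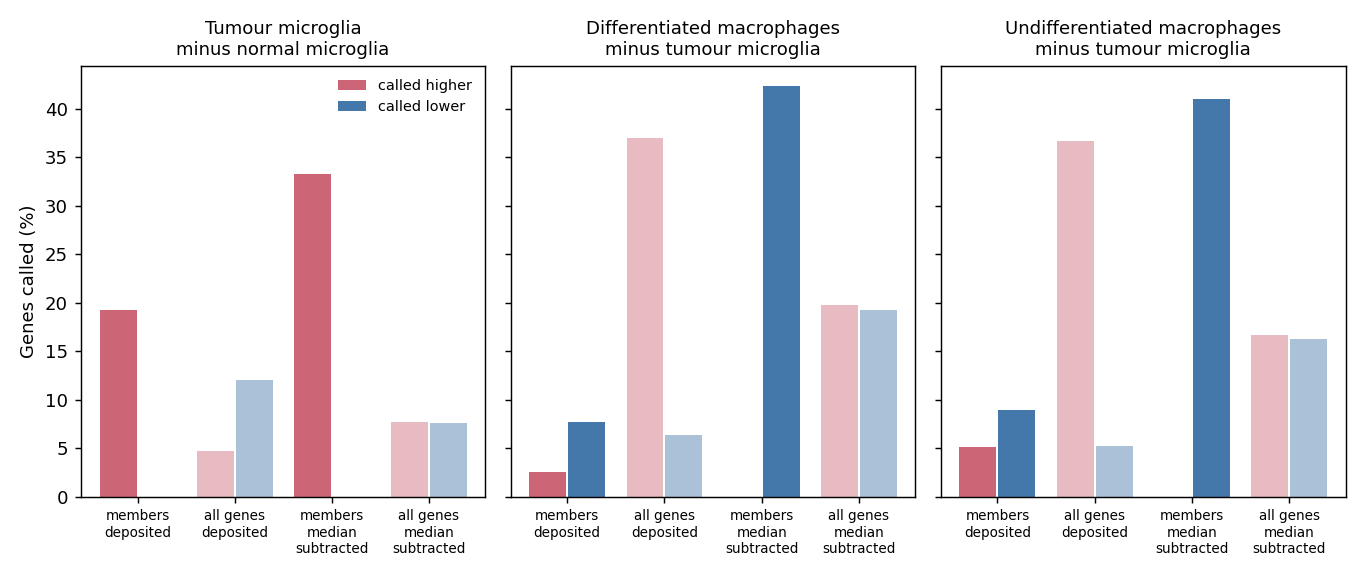
Share of genes called higher (red) or lower (blue) at an adjusted p below 0.05, for the 78 subunit genes (dark) and all genes (pale), as deposited and after each library's median was taken off. In the macrophage comparisons the subunits called higher go from 2 and 4 as deposited to 0 and 0 after subtraction, and those called lower from 6 and 7 to 33 and 32.

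Cox6a2 again had the largest difference. It scored from -1.89 to 0.0156 (median -1.24) in differentiated and from -1.62 to 0.375 (median -0.813) in undifferentiated macrophages. All 16 macrophage libraries lay below the lowest tumour microglia library, a lack of overlap that was not counted over all genes. The gene fell by 3.41 ± 0.482 (adjusted p = 2.36e-05) and fell by 2.99 ± 0.503 (adjusted p = 0.000131), and stayed called in 32 of 32 fits that left out 1 library in each comparison. Within experiment 3 the deposited means differed by -3.49 and -2.37, and within experiment 4 by -2.77 and -3.11. Its paralogue Cox6a1 differed by -0.277 and 0.212 (adjusted p = 0.452 and 0.598); a difference between the paralogues was not tested. Ndufa4 scored from -0.667 to 1.33 (median -0.359) and from -0.614 to 0.917 (median -0.0757), overlapping tumour microglia. It fell by 1.28 ± 0.418 (adjusted p = 0.0163) and fell by 1.11 ± 0.437 (adjusted p = 0.0447), the latter call being lost in 21 of 32 fits that left out 1 library.

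In complex I, Ndufa12, an accessory subunit of the peripheral arm, scored from 0.367 to 2.34 (median 0.985) in tumour microglia, from -3.21 to 1.26 (median -0.245) in differentiated and from -3.24 to 0.497 (median -0.262) in undifferentiated macrophages. It fell by 1.78 ± 0.55 (adjusted p = 0.0116) and fell by 2.42 ± 0.575 (adjusted p = 0.00202), and the first call was lost without differentiated macrophage library 28. Ndufv1, the NADH-binding subunit, scored from -0.175 to 1.48 (median 1.07) in tumour microglia, from -1.07 to 0.415 (median -0.769) in differentiated and from -1.67 to 0.784 (median -0.499) in undifferentiated macrophages. Both genes overlapped between populations, with their medians above 0 in tumour microglia and below 0 in macrophages. Ndufv1 fell by 1.42 ± 0.475 (adjusted p = 0.0193) and fell by 1.47 ± 0.496 (adjusted p = 0.0205).

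Another 3 accessory subunits of complex I fell in a single macrophage population. Ndufa9, near the ubiquinone site, scored from -1.87 to -0.431 (median -0.873) in differentiated macrophages and from -0.467 to 1.43 (median 0.534) in tumour microglia, ranges that barely met, and fell by 1.6 ± 0.366 (adjusted p = 0.00134). In undifferentiated macrophages it scored from -1.14 to 0.444 (median -0.274) and differed by -0.593 (adjusted p = 0.222). Ndufa10 scored from -1.83 to 0.0146 (median -0.631) in undifferentiated macrophages and from -0.163 to 1.52 (median 0.655) in tumour microglia, and fell by 1.9 ± 0.467 (adjusted p = 0.00264). The fall of Ndufa9 and that of Ndufa10 stayed called in 32 of 32 fits that left out 1 library. In differentiated macrophages Ndufa10 differed by -0.587 (adjusted p = 0.303). Ndufa8 scored from -1.39 to 0.661 (median -0.0574) in undifferentiated macrophages and from -0.0541 to 2.19 (median 0.752) in tumour microglia, with overlap, and fell by 1.38 ± 0.487 (adjusted p = 0.0258), a call lost in 8 of 32 fits. In differentiated macrophages it differed by -1.04. None of the 3 was called in the direct comparison of the macrophage populations, where they differed by -1.01, 1.31 and 0.343 (adjusted p = 1.0 for each).

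Another 5 core subunits of complex I were not called on the deposited scale. In differentiated and undifferentiated macrophages, in that order, Ndufs8 differed by -0.767 and -1.08, Ndufs7 by -0.87 and -0.821, Ndufv2 by -0.518 and -0.881, Ndufs3 by -0.503 and -0.458 and Ndufs1 by -0.0112 and 0.319. With the library medians subtracted, 18 complex I genes (50%) were lower in differentiated and 16 (44.4%) in undifferentiated macrophages. Of all genes, 19.2% and 16.3% were lower on that scale. The genes called on that scale alone in differentiated macrophages were Ndufa8 -1.71, Ndufv3 -1.56, Ndufs7 -1.54, Ndufb9 -1.51, Ndufc2 -1.46, Ndufb11 -1.45, Ndufs8 -1.43, Ndufa10 -1.25, Ndufv2 -1.18, Ndufs3 -1.17, Ndufb2 -1.14, Ndufb4 -1.1, Ndufb10 -1.05 and Ndufa13 -1.03. In undifferentiated macrophages they were Ndufs8 -1.8, Ndufv2 -1.6, Ndufs7 -1.54, Ndufa11 -1.41, Ndufc2 -1.32, Ndufa9 -1.31, Ndufb9 -1.31, Ndufb11 -1.2, Ndufs3 -1.18, Ndufv3 -1.09 and Ndufb10 -1.06. The core genes Ndufs3, Ndufs7, Ndufs8, Ndufv1 and Ndufv2 were among those called lower in both.

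Complexes II and III had 0 genes called in either macrophage comparison as deposited. At an unadjusted p below 0.05 stood Uqcr, Uqcrc1 and Uqcrfs1 in differentiated macrophages and Uqcrc1 in undifferentiated macrophages. Sdha differed by -0.39 and -0.177, Sdhb by -0.885 and -0.506, Sdhc by -0.467 and -0.347 and Sdhd by 0.591 and 0.62. On the median-subtracted scale the catalytic pair was called lower in both, Sdha at -1.06 and -0.898 and Sdhb at -1.55 and -1.23, and the anchors were not called. In complex III the Rieske subunit Uqcrfs1 differed by 1.13 and 0.304 (adjusted p = 0.0546 and 0.651), Uqcrc1 by -1.09 and -1.02 and Uqcrc2 by -0.385 and -0.729. Called lower after subtraction were Uqcr -2.09, Uqcrc1 -1.76, Uqcrq -1.19 and Uqcr10 -0.91 in differentiated and Uqcrc1 -1.74, Uqcrc2 -1.45, Uqcrq -1.3 and Uqcr10 -1.05 in undifferentiated macrophages.

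In complex IV, Cox5a, a matrix-side subunit, scored from -0.204 to 1.68 (median 0.704) in undifferentiated macrophages and from -1.08 to 0.0435 (median -0.224) in tumour microglia, with overlap, and rose by 1.25 ± 0.348 (adjusted p = 0.00626). In differentiated macrophages Cox5a scored from -0.46 to 1.36 (median 0.672) and differed by 0.764 (adjusted p = 0.0674). Cox4i1 differed by 0.0656 and -0.121, Cox5b by -0.325 and 0.173, Cox7a2 by 0.219 and 0.627 and Cox7a2l by 0.26 and 0.319. After subtraction of the medians Cox5b -0.992 and Cox6a1 -0.944 were called lower in differentiated and Cox8a -1.14 and Cox4i1 -0.842 in undifferentiated macrophages. Of the 15 genes that rose in tumour against normal microglia, 3 were called in a macrophage comparison as deposited: Cox6a2 and Ndufa4, which fell, and Atp5g3, which rose. The same share over all genes was not computed.

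In complex V, Atp5g3 scored from 0.43 to 1.4 (median 0.809) in differentiated and from 0.185 to 1.93 (median 0.412) in undifferentiated macrophages. These libraries lay above all 8 of tumour microglia, a lack of overlap that was not counted over all genes. The gene rose by 1.05 ± 0.302 (adjusted p = 0.00759) and by 0.902 ± 0.316 (adjusted p = 0.0251). With the library medians subtracted it differed by 0.38 and 0.181 and was not called. Atp5g2 scored from -0.0585 to 0.776 (median 0.346) in undifferentiated macrophages and from -1.39 to 0.12 (median -0.441) in tumour microglia, with overlap, and rose by 0.999 ± 0.348 (adjusted p = 0.0245). In differentiated macrophages Atp5g2 differed by 0.748 (adjusted p = 0.073), and Atp5g1 differed by -0.155 and -0.87 (adjusted p = 0.818 and 0.161). The 3 genes encode the same mature c subunit behind different import sequences, and they were not tested against each other. Atp5l, the g subunit of the membrane part, scored from -1.25 to 0.139 (median -0.21) in tumour microglia, from 0.0164 to 1.03 (median 0.556) in differentiated and from -0.0171 to 1.17 (median 0.554) in undifferentiated macrophages. The ranges overlapped, and it rose by 0.85 ± 0.342 (adjusted p = 0.0481), a call lost in 18 of 32 fits that left out 1 library, and by 1.06 ± 0.358 (adjusted p = 0.0202).

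Atp5j, coupling factor 6 of the peripheral stalk, scored from -1.84 to 0.50 (median -0.70) in differentiated macrophages and from -0.0658 to 1.08 (median 0.251) in tumour microglia, with overlap, and fell by 1.31 ± 0.424 (adjusted p = 0.0155). In undifferentiated macrophages it differed by -0.601 (adjusted p = 0.291). The catalytic head subunits Atp5a1 (-0.109 and -0.249) and Atp5b (-0.857 and -0.702) and the gamma subunit Atp5c1 (-0.257 and -0.545) were not called as deposited. Atp5sl, which is no subunit, scored from -1.75 to 0.404 (median -0.85) in undifferentiated macrophages and from -0.284 to 0.713 (median 0.315) in tumour microglia, and fell by 1.29 ± 0.411 (adjusted p = 0.0149). With the medians subtracted Atp5sl -1.55, Atp5b -1.52, Atp5f1 -1.18, Atp5j2 -0.996 and Atp5a1 -0.776 were called lower in differentiated and Atp5g1 -1.59, Atp5b -1.42, Atp5j -1.32, Atp5c1 -1.27, Atp5f1 -1.0 and Atp5a1 -0.97 in undifferentiated macrophages.

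The counts of the macrophage comparisons moved with single libraries. In differentiated macrophages the genes called higher numbered 1 to 5 (5 without tumour microglia 3) and those called lower 2 to 11 (2 without differentiated macrophage library 28, 10 without 12, and 11 without 31 or without normal microglia 2 or 18). In undifferentiated macrophages those called higher numbered 0 to 5 (0 without differentiated macrophage library 31, 1 without tumour microglia 27 or undifferentiated macrophage library 29) and those called lower 3 to 9 (3 without tumour microglia 27). Without all 9 libraries that kept under 50%, 0 of the 78 subunits were called in any comparison, and of all 17586 genes at most 3 were. Within experiments 3 and 4, which hold 4 libraries of each tumour population from opposite recipients, the deposited means had the sign of the fit for 8 of 8 called genes in differentiated and 11 of 11 in undifferentiated macrophages. The genes were called on these same libraries, which favours such agreement, so it is no separate support. The subunit medians were -0.0391 and -0.0655 in differentiated and -0.110 and 0.135 in undifferentiated macrophages, against 0.591 to 0.635 for all genes. No subunit passed the test of a difference between recipients, which 0.449% and 0.00569% of all genes passed.

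**Figure D5:**
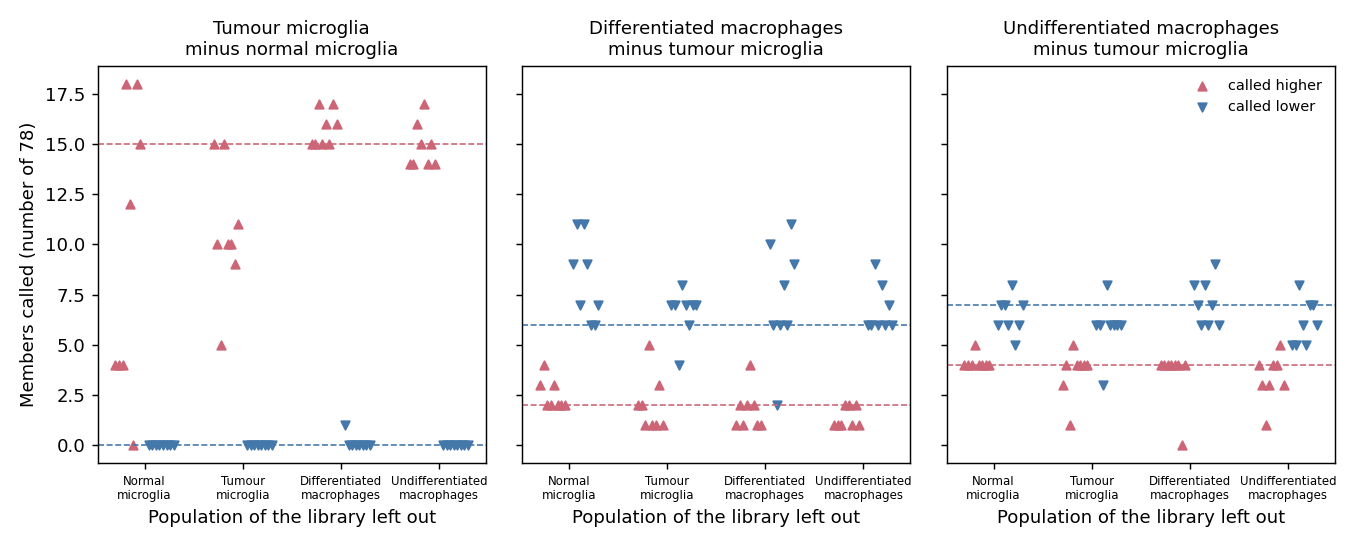
Number of the 78 genes called higher (red, pointing up) or lower (blue, pointing down) when 1 library is left out, by the population of that library; dashed lines mark the counts with all 32 libraries. The count of genes higher in tumour than in normal microglia goes from 15 to 0 without normal microglia 1, and the count lower in differentiated macrophages from 6 to between 2 and 11.

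The pathway lists were also read against tumour microglia, where 6.35% and 5.19% of all genes fell in differentiated and undifferentiated macrophages. Of the 12 carriers and further subunits, 2 (16.7%) fell in differentiated macrophages (median -0.624): the ADP/ATP carrier Slc25a5 (-1.21 ± 0.381) and Etfb, of electron transfer flavoprotein (-1.17 ± 0.368). In undifferentiated macrophages 3 (25%) fell (median -0.742): Coq7 (-2.03 ± 0.596), Cyc1, the cytochrome c1 of complex III (-1.3 ± 0.403), and Atpif1, an inhibitor of ATP synthase (-1.1 ± 0.397). Among 17 citric acid cycle enzymes the 2 called in each (11.8%) were subunits of NAD-dependent isocitrate dehydrogenase (medians -0.505 and -0.155). Idh3g fell by 1.51 ± 0.359 and fell by 2.01 ± 0.375, and Idh3b fell by 0.966 ± 0.368 and fell by 1.35 ± 0.385, in differentiated and undifferentiated macrophages in that order. Once the medians were subtracted, 11 (64.7%) and 3 (17.6%) of the 17 enzymes were lower, against 19.2% and 16.3% of all genes. Of the 12 carriers and further subunits, 6 (50%) and 7 (58.3%) were then lower.

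Of 41 assembly factors, 3 rose in both macrophage populations, 2 fell in differentiated and 1 fell in undifferentiated macrophages (medians -0.0748 and 0.137). Those that rose were 7.32% in each, below the 37% and 36.7% of all genes. Those that fell were 4.88% and 2.44%, against 6.35% and 5.19% of all genes. Lyrm7, of complex III assembly, rose by 1.46 ± 0.517 and 1.34 ± 0.54, and the complex IV factors Sco1 by 1.21 ± 0.412 and 1.3 ± 0.431 and Coa5 by 0.954 ± 0.376 and 1.65 ± 0.392. Ndufaf3, of complex I, fell by 1.32 ± 0.512 and Sdhaf2, of complex II, fell by 1.21 ± 0.461 in differentiated macrophages, and Uqcc2, of complex III, fell by 1.55 ± 0.433 in undifferentiated macrophages. Of 12 regulators, the PGC-1 family coactivators Pprc1 (1.68 ± 0.434) and Ppargc1b (1.03 ± 0.417) and the factor Nrf1 (1.09 ± 0.363) rose in differentiated macrophages, and Pprc1 (1.18 ± 0.454) and Ppargc1b (1.33 ± 0.435) in undifferentiated macrophages (medians 0.292 and 0.44). These were 25% and 16.7% of the regulators, below the 37% and 36.7% of all genes that rose. None of the assembly factors or regulators named as rising in the macrophages was called there with the medians subtracted. mt-Nd4 differed by -0.406 in differentiated macrophages and fell by 0.836 ± 0.336 in undifferentiated macrophages (adjusted p = 0.0492).

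Some markers of other cells were called here as well, where 6.35% and 5.19% of all genes fell in differentiated and undifferentiated macrophages. Pan-myeloid markers fell in 3 and in 5 of 6, with list means from 0.315 to 0.803 in tumour microglia, from -0.996 to -0.191 in differentiated and from -1.29 to -0.121 in undifferentiated macrophages. Where 37% and 36.7% of all genes rose in differentiated and undifferentiated macrophages, neuron markers rose in 3 of 4 in both, astrocyte markers rose in 4 and fell in 1 of 6 in both, endothelial markers rose in 3 and 2 of 4, glioma cell markers in 2 of 3 in both, dendritic cell markers in 2 and 1 of 3 and oligodendrocyte markers in 1 of 5 in both. After subtraction of the medians, 1 of 4 neuron, 2 of 6 astrocyte, 2 of 4 endothelial and 2 of 3 glioma cell markers were higher in both, against 19.8% and 16.7% of all genes. List means of the neuron markers ran from -0.462 to 0.875 and from -0.158 to 0.954 in the macrophages, those of the astrocyte markers from 0.0467 to 0.672 and from -0.236 to 0.90, and those of the glioma markers from 0.0763 to 1.12 and from 0.275 to 1.3. Proliferation markers had 0 of 5 called as deposited and 1 and 5 lower with the medians subtracted, where 19.2% and 16.3% of all genes were lower. Their list means ran from -0.563 to 1.34 and from -0.541 to 0.599. The part of these cells in the subunit differences was not tested.

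Between differentiated and undifferentiated macrophages limma called 0 of 78 subunits in either direction, where 0% of all genes were higher and 0.0114% lower, as deposited and with the library medians subtracted. At an unadjusted p below 0.05 stood Ndufa10, higher in differentiated macrophages, and Ndufa9, lower in them. The median difference was -0.0873 for the subunits and -0.0456 for all genes, and single differences ran from -1.01 to 1.31. The difference between recipients was called for 0 subunits and 0% of all genes.

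Within populations the subunits varied together weakly. After the mean of each population and recipient was removed, the correlation between 2 subunits over the 32 libraries had a median of 0.122 over 3003 pairs, of which 66.4% were positive, against a median of 0.000165 between subunits and other genes. The median was 0.223 among complex IV genes, 0.178 among complex V genes, 0.100 among complex I genes, 0.0667 among the 6 pairs of complex II and 0.0363 among the 36 pairs of complex III. All pairs share the libraries, their scaling and the removed directions, so these values are a description. The lowest residual SDs were those of Cox6a1 (0.307), Cox4i1 (0.314), Ndufa2 (0.351) and Atp5g3 (0.393), and the highest those of Cox4nb (2.01), Ndufb6 (1.7), Ndufs5 (1.47) and Uqcr (1.35). Cox4nb and Uqcr are 2 of the 3 rows that are not distinct subunits.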

How the data were processed

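RNA from sorted cells was amplified with SMART-Seq v4 for low input, per the labels' protocols. The submitters' processing notes name FastQC, STAR 2.5.0a, RSEM 1.3.0 and the build mm9. The deposited values are signed scores from -6.50 to 6.92 for 17586 genes in 32 libraries, centred per gene overall and within recipients; the normalization, scale and log base are not given in the sources used here. Every value column was mapped to a library (0 unmapped). The table spans 21 dimensions, so 11 directions among libraries had been removed.

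As the scores are signed, they were fitted without a log or a filter. limma 3.58.1 (R 4.3.3) modelled population-by-recipient means over all 32 libraries, with the removed directions as covariates (15 residual degrees of freedom), robust empirical Bayes, two-sided tests averaged over recipients and Benjamini-Hochberg adjustment over all genes. The fit was also run on simulated tables with known changes, the same removed directions and errors drawn independently for each gene. Such tables cannot show how the fit performs where genes vary together, and their outcome is not given here. Depth is unknown, so no interval or floor is given. Alternatives were the library median subtracted, other model terms, weights and subsets, and each library left out. The genes named are every called member, every core subunit but 1 that is not reported here, paralogous isoforms, members with an outlying library or a call that changed with median subtraction, and called genes of the other lists. Members and lists were chosen with earlier results of these data known. Promoters were read from RefSeq (GRCm38.p6) by symbol; figures used matplotlib 3.10.9 in Python 3.11.15.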

Additional observations from a re-analysis of the deposited data

Results flagged for a closer look

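In each gene, the highest or lowest of the 8 libraries of a population was set against the rest by the gap to its nearest neighbour as a share of the whole range (above the 95% critical value of Dixon's test for 8 values). Of 312 gene and population groups, 33 had such a library. The nominal rate of the test is about 1 in 20, and the rate over all genes was not computed. None of these values came from a library that kept under 50% of its own variation. As such libraries lost most of their variation, this says nothing of their quality. The cause was not tested. In differentiated macrophage library 15 the genes that stood apart were Atp5a1 at -0.693 (nearest -0.0812), Ndufb11 at -1.87 (nearest -0.59), Ndufb2 at -0.764 (nearest -0.0747), Ndufs6 at -1.13 (nearest 0.154), Sdhd at -0.979 (nearest 0.276) and Uqcrh at -0.296 (nearest 0.246). Normal microglia library 2 stood apart in Atp5j at 2.04 (nearest 0.545), Atp5sl at 2.61 (nearest 1.43), Cox5a at -2.41 (nearest -1.16), Ndufa3 at -1.25 (nearest -0.439) and Ndufa9 at -0.486 (nearest 0.514). Apart from its group, tumour microglia library 30 had Atp5k at 1.05 (nearest -0.114), Atp5o at 1.04 (nearest -0.0175), Ndufa13 at 0.759 (nearest 0.12), Ndufs6 at 0.568 (nearest -0.248) and Uqcr10 at 1.28 (nearest 0.314). The values of undifferentiated macrophage library 16 that lay far from the others were Atp5j2 at 1.28 (nearest 0.449), Cox7c at -0.958 (nearest 0.0288), Ndufs5 at -1.88 (nearest -0.374) and Ndufs8 at -2.07 (nearest -0.533). For tumour microglia library 3 they were Atp5e at -2.09 (nearest -0.499), Cox7a2 at -2.03 (nearest -0.338) and Ndufa4 at -0.348 (nearest 0.683). In undifferentiated macrophage library 32 the genes that stood apart were Atp5f1 at -1.38 (nearest 0.228), Atp5g3 at 1.93 (nearest 0.869) and Ndufa5 at 1.41 (nearest 0.647). Tumour microglia library 11 stood apart in Ndufa1 at -1.45 (nearest -0.288) and Ndufb3 at 1.68 (nearest 0.197). Differentiated macrophage library 12 stood apart in Ndufa4 at 1.33 (nearest 0.0362). From differentiated macrophage library 23 came Atp5h at -0.763 (nearest 0.254). In tumour microglia library 19 it was Ndufv2 at -0.999 (nearest 0.338). Undifferentiated macrophage library 5 stood apart in Ndufa2 at 0.726 (nearest 0.245). From undifferentiated macrophage library 24 came Ndufa4 at 0.917 (nearest -0.0315).

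A single subunit differed between the libraries of WT and Pep3 recipients by a test of the difference itself. The change of Ndufa5 between tumour and normal microglia, WT minus Pep3, was -4.62 (limma, adjusted p = 0.036). Its deposited means differed by 0.139 in WT and 1.86 in Pep3 recipients, so the fitted value, which takes in the removed directions, is larger in size than the deposited contrast. Recipient and experiment number went together within each population, so the difference cannot be assigned to the strain. At an unadjusted p below 0.05 the test gave 10 of the 78 subunits in this comparison, 4 in differentiated and 6 in undifferentiated macrophages against tumour microglia, and 2 between the macrophage populations.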

How the results depend on the processing

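No library number occurs in more than 1 population, so the labels pair no libraries. Each run of 8 numbers holds 1 library of every population and recipient, so a replicate block for these 4 runs was added after seeing the data: 16 subunits were then higher in tumour microglia, 1 higher and 8 lower in differentiated and 5 higher and 7 lower in undifferentiated macrophages. Deviations from the group means correlated with a median of -0.00665 between libraries of the same run, from -0.647 to 0.624, and the labels do not say that a run shares anything. Leaving out each library in turn, the subunits higher in tumour against normal microglia numbered 0 to 18, those lower 0 to 1, and their median difference was 0.453 to 0.738. Between differentiated macrophages and tumour microglia these were 1 to 5, 2 to 11 and -0.361 to -0.0839, and for undifferentiated macrophages 0 to 5, 3 to 9 and -0.191 to 0.0461. Between the macrophage populations they were 0, 0 and -0.168 to 0.0710. With library medians subtracted, 26 genes were higher in tumour microglia (median 0.839), and 0 were higher and 33 lower (-0.876) in differentiated and 0 and 32 (-0.791) in undifferentiated macrophages. Of all genes, 19.8% and 16.7% were then higher in the macrophage comparisons and 19.2% and 16.3% lower. Before subtraction the median difference of all genes there was 0.652 and 0.715. Without terms for the removed directions, 1 gene was lower in tumour microglia, and 6 were higher and 12 lower in differentiated macrophages. Without all 9 libraries that kept under 50%, 0 subunits and at most 3 of all 17586 genes were called in any comparison, with subunit medians of 0.255 for tumour microglia and -0.475 for differentiated macrophages against all-gene medians of -0.143 and 0.438. Fitting the populations compared alone gave 2 subunits higher in tumour microglia and 0 in either direction in the macrophages; of all genes 214 were then higher in tumour microglia, and 48 and 9 in the macrophages, from 820, 6510 and 6448. Library weights gave 2 genes higher in tumour microglia, 1 in differentiated macrophages and 2 in undifferentiated macrophages, beside 208, 5546 and 5560 of all genes. WT recipients alone gave 0 calls among all 17586 genes and subunit medians of -0.385, 0.150 and 0.257 in the 3 comparisons in that order, and Pep3 recipients alone 0 calls in these comparisons among all genes and a subunit median of 0.136 for undifferentiated macrophages.

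Of single called genes, 17 results turned sign. For tumour against normal microglia these were Atp5b (-0.781), Cox8a (-0.247), Ndufa4 (-1.23), Ndufa5 (-1.84), Ndufb6 (-2.45), Ndufb7 (-0.30) and Ndufb8 (-0.482) in WT recipients alone, Cox8a (-0.354) in Pep3 recipients alone and Ndufb8 (-0.0306) without the 9 libraries. For differentiated macrophages they were Atp5j (1.34) and Ndufa9 (0.259) in Pep3 recipients alone, and Atp5l (-0.404) and Ndufv1 (0.112) without the 9 libraries. For undifferentiated macrophages they were Atp5g2 (-0.259) and Atp5l (-0.0231) without the 9 libraries, Atp5l (-0.752) in WT and Ndufv1 (0.425) in Pep3 recipients alone. In the deposited means, every called gene had the same sign in both recipients (15 of 15, 8 of 8 and 11 of 11), which calling on the average over recipients favours. The subsets hold fewer libraries, and the cause of these changes was not tested. Cox6a2 kept its direction in every alternative run; apart from single libraries left out, it ran from 0.0335 to 4.67 for tumour against normal microglia, -4.80 to -2.40 for differentiated and -5.08 to -2.39 for undifferentiated macrophages; it was not called without the 9 libraries or in either recipient strain alone in any of the 3, nor in the macrophage comparisons when only the populations compared were fitted. Leaving out Cox4nb, Atp5sl and Uqcr, an alternative chosen after seeing the data, changed no count by over 1.5 times. Depth is unknown, so what it limits cannot be stated.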
